A study of Homo sapiens with 9 samples.

Results

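The antioxidant genes followed across all libraries were the peroxiredoxin genes PRDX1, PRDX2, PRDX3 and PRDX5, the thioredoxin genes TXN and TXNRD1, the glutathione peroxidase genes GPX1 and GPX4, and the superoxide dismutase genes SOD1 and SOD2. They were chosen by name, as the redox setting of vitamin C uptake, and make up 10 of the 25540 gene symbols measured. All 10 passed the filter on low values (a mean of at least 1 TPM over the libraries) and so belong to the 10939 genes tested. RNA sequencing was done in CAL-1, an established human cell line. It stems from BPDCN (blastic plasmacytoid dendritic cell neoplasm), a blood cancer whose cells resemble plasmacytoid dendritic cells. KHSRP, which binds AU-rich elements in mRNAs and is known to speed their decay, was lowered by CRISPR interference, which represses transcription of a gene without cutting it. There were 3 groups of 3 libraries: KHSRPi#1 and KHSRPi#2, both with the genotype label KHSRP knockdown, and the control NTC, with the genotype label WT. The sources used here do not say what the numbers in KHSRPi#1 and KHSRPi#2 stand for, where the guides bind or what NTC abbreviates. They also do not say whether NTC cells carry the same repressor. All groups are 1 cell line, and nothing says that replicates were separate cultures, so the spread behind each p-value is that of the libraries and may be technical.

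Superoxide dismutases turn superoxide into hydrogen peroxide, SOD1 mainly in the cytosol and SOD2 in mitochondria. Peroxiredoxins reduce hydrogen peroxide with a reactive cysteine that thioredoxin (TXN) restores, and thioredoxin reductase (TXNRD1) restores thioredoxin with electrons from NADPH. Glutathione peroxidases draw on glutathione instead: GPX1 reduces hydrogen peroxide, and GPX4 reduces lipid hydroperoxides in membranes and so protects from ferroptosis. Thioredoxin reductase and glutathione also help to reduce oxidised vitamin C inside cells, and many of these genes are known targets of the transcription factor NRF2 (gene NFE2L2).

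GPX1, GPX4 and TXNRD1 encode selenoproteins, which read an in-frame TGA codon as selenocysteine at their active site. Only 14 of 9807 tested genes with a protein-coding GENCODE 29 transcript have such a codon, and 3 of them are among the 10 antioxidant genes. The sequences below show that codon in capitals with 12 bases on each side, 5′ to 3′ on the coding strand of GRCh38. They are from exon 1 of GPX1 (chr3:49358120-49358146, minus strand, codon 49), exon 3 of GPX4 (chr19:1105391-1105417, plus strand, codon 73) and exon 15 of TXNRD1 (chr12:104348401-104348427, plus strand, codon 498).
GPX1: gtggcgtccctcTGAggcaccacggtc
GPX4: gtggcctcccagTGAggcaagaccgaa
TXNRD1: caggctggctgcTGAggttaagcccca

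Given the known targets of KHSRP, the 3′ UTR of each gene's chosen transcript was searched on the coding strand for the pentamer ATTTA and for the nonamer TTATTTATT, which includes that pentamer. The pentamer occurred in 5 of the 10 genes, against 69.9% of 9695 tested genes with a 3′ UTR. The nonamer occurred in SOD2 and TXNRD1 only, 2 of the 10 genes, against 8.49% of tested genes. The 3′ UTR chosen for SOD2 is 13436 bases long and that of TXNRD1 1856 bases, against a median of 1073 bases over all tested genes and 314 bases over the 10. SOD2 also has shorter transcripts, so its matches depend on the isoform. The 3 windows below have the nonamer in capitals. They lie in SOD2 at chr6:159678529-159678553 and chr6:159676742-159676766 (minus strand) and in TXNRD1 at chr12:104349986-104350010 (plus strand), where a second, overlapping match starts 4 bases on.
SOD2 site 1: tatttcatTTATTTATTtttttatt
SOD2 site 2: ttttttacTTATTTATTtttaaatt
TXNRD1 site: attcagttTTATTTATTtattttta

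NRF2 binds antioxidant response elements, whose core is TGACNNNGC. Of the 10 genes, 8 have windows in the RefSeq promoter table (GRCh38.p14), 15 windows in all, each from 250 bases before to 50 bases after a transcription start. The core occurred on either strand in 2 windows, both of TXNRD1, and so in 1 of 8 genes, against 19.6% of 8336 tested genes with a window. The 3 TXNRD1 matches, at chr12:104215672-104215696 (plus strand), chr12:104215763-104215787 and chr12:104286922-104286946 (both minus strand), are given below with the core in capitals.
TXNRD1 core 1: acgggctaTGACTTCGCtgttgtca
TXNRD1 core 2: gtgggaacTGACGGAGCcgaaggac
TXNRD1 core 3: agtcagaaTGACAAAGCagaaatcc

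The target gene fitted the labels. KHSRP was at 35.2 ± 0.952 TPM in the 6 knockdown libraries, against 237 ± 19.1 TPM in the 3 NTC libraries (mean ± SD), a log2 fold change of -2.72 (SE 0.06, limma adjusted p = 1.75e-09). TPM is scaled per length and to 1 total in every library, so the number of reads behind a value is unknown. Of 12 plasmacytoid dendritic cell markers, 10 were at 1 TPM or more in all 9 libraries, while LILRA4 lay between 0.522 and 1.246 TPM. IL3RA, a defining surface marker, is listed at 0 in every library. Whether that 0 comes from the cells or from the way reads were assigned was not tested. The 5 monocyte markers summed to 37.1 to 81.5 TPM in knockdown and 36.9 to 91.0 TPM in NTC libraries, nearly all of it LYZ, and the T or NK cell markers to at most 11.9 TPM. The 3 libraries numbered 3, 1 in each group, stood apart from the other 6 on principal component 1 (38.3% of the variance). Each comparison below is therefore given from the fit without a term for these libraries and, where a call differs, from the fit with it.

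The 10 genes are among the abundant mRNAs of CAL-1, apart from SOD2. TPM is per length, so levels can be compared between genes, given the transcript lengths used, which are not known. The transcript chosen above for SOD2 is 14266 bases long and shorter ones exist, so the level of SOD2 depends on that length. PRDX1, the most abundant peroxiredoxin of the cytosol, averaged 1504 ± 140 TPM over the 9 libraries (SD, n = 9) and ranked 93 of all symbols. It was followed by TXN at 1110 ± 70.9 TPM and SOD1 at 706 ± 23.0 TPM. A middle group held GPX1 at 422 ± 43.5 TPM, the mitochondrial peroxiredoxin PRDX3 at 403 ± 11.4 TPM, GPX4 at 369 ± 25.7 TPM and the cytosolic PRDX2 at 364 ± 10.9 TPM. PRDX5, a peroxiredoxin of several compartments, averaged 213 ± 20.3 TPM and TXNRD1 191 ± 11.6 TPM. SOD2 was at 29.2 ± 1.52 TPM, ranked 4469, and SOD1 was 24.2 times as high.

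This order held in all 9 libraries at its upper end, with PRDX1 above TXN, TXN above SOD1 and SOD1 above GPX1 in each. The neighbours GPX1 and PRDX3 overlapped, with GPX1 the higher in 5 of 9 libraries. These were all NTC libraries and the knockdown libraries numbered 3. In the knockdown libraries numbered 1 and 2, PRDX3 was the higher. PRDX3 was above GPX4 in 7, GPX4 above PRDX2 in 5 and PRDX5 above TXNRD1 in 6 of 9 libraries, so these neighbours overlapped as well. The 5 libraries with GPX4 above PRDX2 were the same as those with GPX1 above PRDX3. PRDX2 was above PRDX5, and TXNRD1 above SOD2, in every library. The coefficient of variation over the 9 libraries ran from 2.83% for PRDX3 to 10.3% for GPX1. Together the 10 genes summed to 5308 ± 170 TPM in knockdown (n = 6) and 5321 ± 130 TPM in NTC libraries (n = 3), and took between 0.508% and 0.549% of each library.

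**Figure D1:**
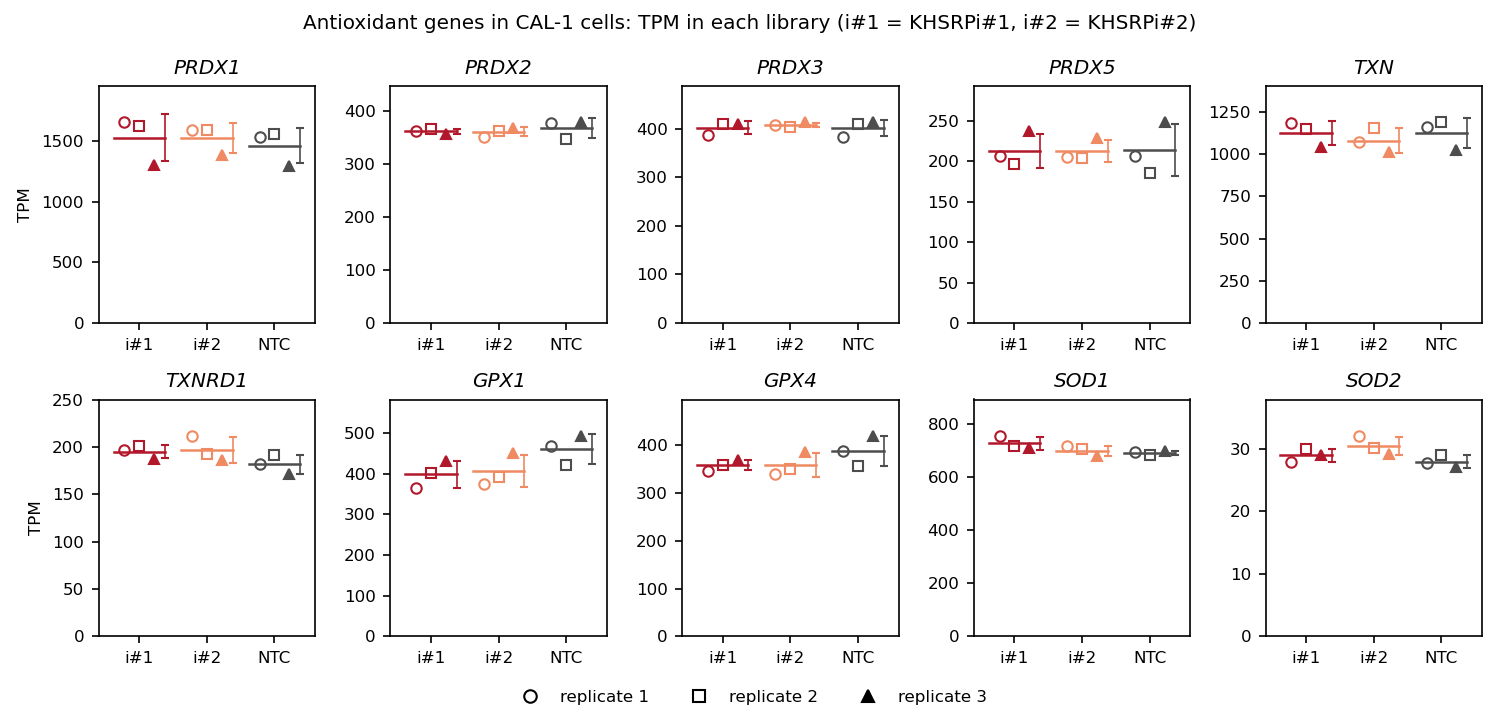
TPM of the 10 antioxidant genes in each library, 1 panel per gene with its own axis from 0. Groups run KHSRPi#1, KHSRPi#2, NTC from left to right; horizontal lines are group means, bars the SD (n = 3), and filled triangles the libraries numbered 3. In no gene do all 6 knockdown points lie on one side of all 3 NTC points, and in PRDX1, TXN and PRDX5 the triangles lie apart from the other libraries.

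In KHSRP knockdown libraries the 10 genes were measured close to their control levels. Averaged over both knockdown groups, none passed an adjusted p of 0.05 with limma, where 0.0823% of all tested genes did (9 of 10939). GPX1 was the 1 gene of the 10 with an unadjusted p under 0.05, a share reached by 7.93% of all genes. The log2 fold changes, on the log2(TPM + 1) scale, ran from -0.20 for GPX1 to 0.11 for TXNRD1, with a median of 0.01 against 0.02 over all tested genes. Their 95% intervals all lay between -0.36 (lower bound of GPX1) and 0.26 (upper bound of PRDX1). In bulk RNA, fewer cells of a type and less RNA per cell cannot be told apart. For no gene did all 6 knockdown libraries lie on one side of all 3 NTC libraries, which 4.67% of tested genes did (3.10% above and 1.57% below). Within the libraries numbered 3 and within those numbered 1 and 2, taken apart, the knockdown libraries were all above NTC for PRDX1 and TXNRD1 (8.37% of tested genes) and all below it for GPX1 (5.49%).

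Among the peroxiredoxins, PRDX1 measured 1656, 1623 and 1303 TPM in KHSRPi#1 and 1594, 1595 and 1381 TPM in KHSRPi#2, against 1533, 1556 and 1294 TPM in NTC (replicates 1, 2 and 3 in each). The library numbered 3 is the lowest of each group, and the groups overlap. The log2 fold change of PRDX1, knockdown minus NTC, was 0.06 (SE 0.09, limma adjusted p = 0.903). PRDX5 measured 206, 197 and 237 TPM in KHSRPi#1 and 205, 204 and 229 TPM in KHSRPi#2, against 207, 186 and 248 TPM in NTC. Here the library numbered 3 is the highest of each group, and the NTC libraries span all 6 knockdown values. The group means of PRDX5 were 213 ± 16.0 TPM in knockdown and 214 ± 31.7 TPM in NTC. PRDX2, abundant in red blood cells but widely expressed, averaged 362 ± 6.06 TPM in knockdown and 368 ± 18.5 TPM in NTC. PRDX3 averaged 404 ± 9.55 TPM in knockdown and 401 ± 16.8 TPM in NTC. The difference of means was smaller than the SD of either group for PRDX3 and PRDX5, and smaller than the NTC SD for PRDX2. Limma adjusted p-values were 0.910 for PRDX2, 0.963 for PRDX3 and 0.999 for PRDX5, and the sign for PRDX3 and PRDX5 turned negative under median-ratio rescaling (-0.01 and -0.02).

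TXN, which hands electrons to the peroxiredoxins, measured 1183, 1151 and 1044 TPM in KHSRPi#1 and 1070.4, 1157 and 1012 TPM in KHSRPi#2, against 1158, 1189 and 1027 TPM in NTC. The groups overlap, and the log2 fold change was -0.03 (SE 0.06, limma adjusted p = 0.939). Its reductase TXNRD1 measured 197, 201 and 187 TPM in KHSRPi#1 and 212, 193 and 186 TPM in KHSRPi#2, against 182, 192 and 172 TPM in NTC. Only NTC replicate 2 reaches into the knockdown range, above both knockdown libraries numbered 3. The means were 196 ± 9.75 TPM in knockdown and 182 ± 9.96 TPM in NTC, a log2 fold change of 0.11 (SE 0.05, limma adjusted p = 0.661; 95% interval -0.01 to 0.23). It was 0.07 without NTC replicate 3 and 0.15 without NTC replicate 2, the lowest and highest values with 1 library left out. Among libraries with the number 3, TXNRD1 averaged 187 TPM in knockdown against 172 TPM in NTC, and among those numbered 1 and 2, 201 TPM in knockdown against 187 TPM in NTC, log2 differences of 0.12 and 0.10.

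GPX1, the cytosolic and mitochondrial glutathione peroxidase, showed the lowest knockdown values relative to control. It measured 364, 402 and 430.4 TPM in KHSRPi#1 and 376, 391 and 451 TPM in KHSRPi#2, against 469, 421 and 494 TPM in NTC. The only overlap comes from NTC replicate 2, which lies below both knockdown libraries numbered 3. The means were 402 ± 33.2 TPM in knockdown and 461 ± 36.7 TPM in NTC, and the log2 fold change was -0.20 (SE 0.07, unadjusted p = 0.0237, limma adjusted p = 0.550; 95% interval -0.36 to -0.03). Within the libraries numbered 3 it averaged 441 TPM in knockdown against 494 TPM in NTC (log2 difference -0.16), and within those numbered 1 and 2, 383 TPM in knockdown against 445 TPM in NTC (-0.22). GPX4 measured 347, 359 and 369.5 TPM in KHSRPi#1 and 340.1, 349.7 and 386 TPM in KHSRPi#2, against 389, 357 and 421 TPM in NTC. NTC replicate 2 again lies among the knockdown libraries. The log2 fold change of GPX4 was -0.11 (SE 0.06, limma adjusted p = 0.669; 95% interval -0.24 to 0.02). Leaving out 1 library moved it to between -0.06 without NTC replicate 3 and -0.17 without NTC replicate 2.

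The fit with a term for the libraries numbered 3 called 192 genes in all (1.76% of those tested), and GPX1 alone of the 10 antioxidant genes: GPX1 fell by 0.20 on the log2 scale (SE 0.04, limma adjusted p = 0.0414), where 0.485% of tested genes were called lower. In the same fit 4 of the 10 had an unadjusted p under 0.05 (PRDX1, TXNRD1, GPX1 and GPX4), against 17.5% of tested genes, and the adjusted p was 0.135 for GPX4, 0.161 for TXNRD1 and 0.282 for PRDX1. The call of GPX1 was lost in 7 of the 9 fits that left out 1 library each, with adjusted p-values up to 0.143 without NTC replicate 1. It passed without NTC replicate 2 (0.0318) and without KHSRPi#1 replicate 2 (0.0319). In the fit with the replicate number as a block, GPX1 had a limma adjusted p of 0.0555.

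GC content moved with the knockdown difference across genes. Over 9807 genes, Spearman's rho between transcript GC content and the log2 fold change was -0.38, as a description across genes, which are not independent. The median log2 fold change was 0.05 for transcripts under 45% GC and -0.04 for those at 55% or more. GPX1 (64.2%) and GPX4 (63.0%) have the highest GC content of the 10 genes, PRDX5 has 61.5%, PRDX2 58.6%, and the other 6 lie between 40.7% and 47.6%. The trend differed between libraries: rho of GC content with each library's deviation from the gene means was 0.58 in NTC replicate 1, -0.19 in NTC replicate 2 and 0.06 in NTC replicate 3, and between -0.34 and 0.00 in the knockdown libraries. With the trend removed from each library, an alternative chosen after seeing the data, the log2 fold change of GPX1 was -0.14 and that of GPX4 -0.06. The corrected GPX1 difference had a limma adjusted p of 0.592 without and 0.0256 with the term for the libraries numbered 3. No other of the 10 genes passed in these fits.

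**Figure D2:**
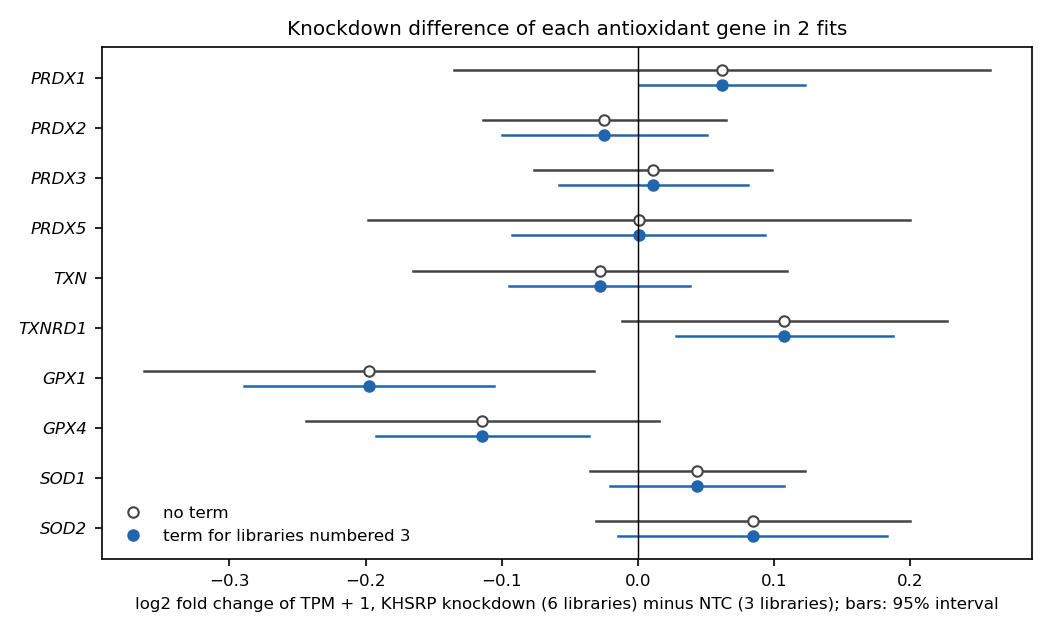
Log2 fold change of TPM + 1 for each of the 10 genes, knockdown (6 libraries) minus NTC (3 libraries), with 95% intervals. Open points are from the fit without a term and filled points from the fit with a term for the libraries numbered 3. GPX1 lies lowest at -0.20 in both, and the intervals narrow with the term.

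Neither superoxide dismutase gene passed. SOD1 averaged 714 ± 25.3 TPM in knockdown and 692 ± 7.08 TPM in NTC, with the highest value, 756 TPM, in KHSRPi#1 replicate 1 and the lowest, 678 TPM, in KHSRPi#2 replicate 3. Its log2 fold change was 0.04 (SE 0.04, limma adjusted p = 0.804). SOD2 measured 27.9, 30.0 and 28.98 TPM in KHSRPi#1 and 32.1, 30.2 and 29.2 TPM in KHSRPi#2, against 27.8, 29.04 and 27.1 TPM in NTC. The highest 3 values are from knockdown and the lowest 2 from NTC, and the ranges overlap. The log2 fold change of SOD2, a gene with TTATTTATT in its 3′ UTR, was 0.08 (SE 0.05, limma adjusted p = 0.726; 95% interval -0.03 to 0.20).

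Each knockdown group was also set against NTC on its own; both share the same 3 NTC libraries. None of the 10 genes passed in KHSRPi#1 or in KHSRPi#2, where in each comparison 0.0548% of tested genes did. At an unadjusted p under 0.05, 1 of the 10 was found in KHSRPi#1 (5.24% of tested genes) and 0 in KHSRPi#2 (6.93%). The log2 fold change of GPX1 was -0.21 in KHSRPi#1 and -0.18 in KHSRPi#2 (SE 0.09 each), with limma adjusted p-values of 0.919 for KHSRPi#1 and 0.724 for KHSRPi#2. TXNRD1 was at 0.10 in KHSRPi#1 and 0.11 in KHSRPi#2, and GPX4 at -0.11 in both. SOD2 was at 0.05 in KHSRPi#1 and 0.12 in KHSRPi#2. With the term for the libraries numbered 3, 0.676% of tested genes passed in KHSRPi#1 and 0.804% in KHSRPi#2, and again none of the 10, the lowest adjusted p-values being those of GPX1 (0.0849 in KHSRPi#1 and 0.107 in KHSRPi#2).

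The knockdown groups were then compared with each other. No gene of the 10 passed between KHSRPi#2 and KHSRPi#1, nor did any other of the 10939 genes (0%). At an unadjusted p under 0.05 the counts were 0 of 10 and 1.05% of all genes with limma. The difference furthest from 0 was that of SOD2, 30.5 ± 1.48 TPM in KHSRPi#2 and 28.96 ± 1.05 TPM in KHSRPi#1, or 0.07 on the log2 scale (95% interval -0.06 to 0.21). For GPX1 the difference between KHSRPi#2 and KHSRPi#1 was 0.03 (95% interval -0.17 to 0.22).

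More of the 10 genes passed between the libraries numbered 3 and the rest than between knockdown and NTC. In the fit with group and this term, 6 of the 10 passed an adjusted p of 0.05 with limma, where 30.3% of all tested genes did. The split was chosen because the libraries numbered 3 stood apart in these same data. Its p-values are therefore a description and not an independent test. PRDX1, TXN and TXNRD1 were lower in the libraries numbered 3 (11.6% of tested genes) and PRDX5, GPX1 and GPX4 higher (18.7%). PRDX1 averaged 1326 ± 48.1 TPM in the 3 libraries numbered 3 and 1593 ± 44.5 TPM in the other 6, a log2 difference of -0.26 (SE 0.03, limma adjusted p = 7.2e-05). TXN averaged 1027 ± 15.8 TPM in the libraries numbered 3, against 1151 ± 42.6 TPM in the other 6 (-0.16, adjusted p = 0.00218). Of the other peroxiredoxins, PRDX2 (0.03, limma adjusted p = 0.610) and PRDX3 (0.05, limma adjusted p = 0.305) did not pass. PRDX5 averaged 238 ± 9.96 TPM in the libraries numbered 3, against 201 ± 8.14 TPM in the other 6, a log2 difference of 0.24 (adjusted p = 0.00149).

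In 4 genes the libraries numbered 3 did not overlap the rest, PRDX1 and TXN below and PRDX3 and PRDX5 above; 27.5% of all tested genes had no overlap. The log2 difference was 0.19 for GPX1 (adjusted p = 0.0064), 0.13 for GPX4 (0.0146) and -0.11 for TXNRD1 (0.0407), all with limma. PRDX1, TXN and PRDX5 passed whichever of the 9 libraries was left out. GPX1 passed in 8, GPX4 in 7 and TXNRD1 in 2 of these 9 fits, and without KHSRPi#2 replicate 3 the count was 3 of 10. GC content did not move with this difference across all genes (rho -0.01 over 9807 genes). Among the 10, those highest in GC content, PRDX2, PRDX5, GPX4 and GPX1, had log2 differences of 0.03, 0.24, 0.13 and 0.19. The others ran from -0.26 for PRDX1 to 0.05 for PRDX3, the only positive value among them. A part of GC content in this difference was not tested. What sets these libraries apart is not given in the labels, which name a single batch.

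**Figure D3:**
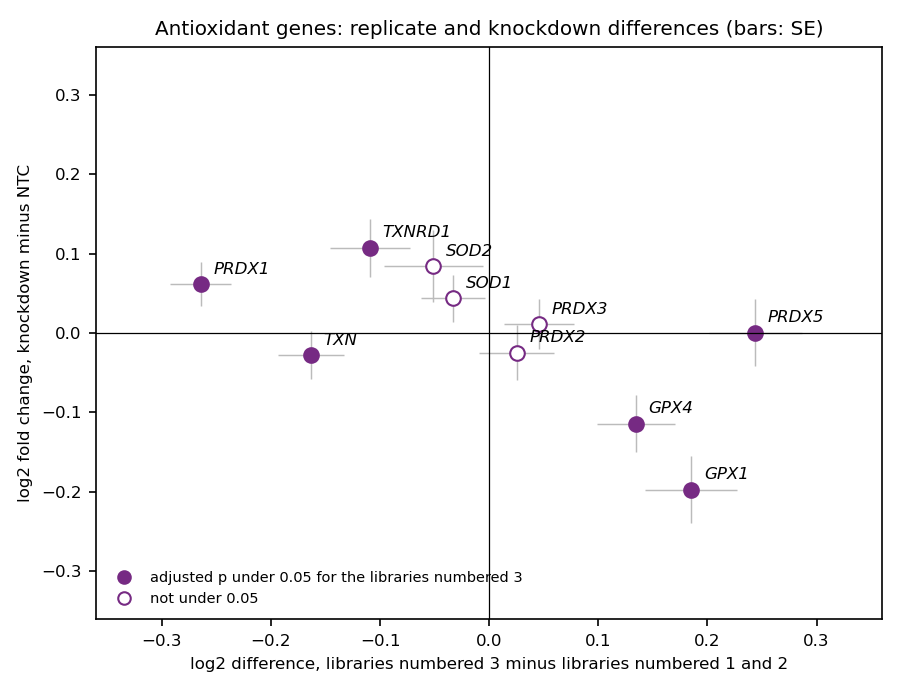
Log2 difference of each gene between the libraries numbered 3 and those numbered 1 and 2 (horizontal axis) and its log2 fold change, knockdown minus NTC (vertical axis), both on the log2(TPM + 1) scale from the fit with the term; bars are SE. Filled points passed an adjusted p of 0.05 on the horizontal axis. The points spread from -0.26 to 0.24 horizontally and from -0.20 to 0.11 vertically.

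Genes of the same systems outside the 10 were taken from 6 lists. In the fit without a term, 0 of their tested genes were called in either direction. Of all 10939 tested genes 58.3% had a positive log2 fold change, with a median of 0.02, and the sign counts of each list stand beside that share. Of 14 tested genes of the thioredoxin and peroxiredoxin system, 8 were higher and 6 lower in knockdown by sign, with a median log2 fold change of 0.00. PRDX4, the peroxiredoxin of the endoplasmic reticulum, was at 357 ± 12.8 TPM in knockdown and 339 ± 8.62 TPM in NTC (log2 fold change 0.07, limma adjusted p = 0.717). MSRB1, a methionine sulfoxide reductase and selenoprotein, was at 2.00 ± 0.512 TPM in knockdown and 2.85 ± 0.863 TPM in NTC (-0.35, adjusted p = 0.620). TXNIP, which binds and inhibits thioredoxin, had 87.9 ± 7.93 TPM in knockdown and 85.1 ± 2.98 TPM in NTC. PRDX6 was the most abundant of the list, at 415 ± 9.81 TPM in knockdown and 415 ± 5.57 TPM in NTC, and the mitochondrial thioredoxin TXN2 had 148 ± 3.57 TPM in knockdown and 152 ± 2.77 TPM in NTC.

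Of 24 tested genes of glutathione synthesis and use, 17 were higher and 7 lower by sign (70.8% higher, against 58.3% of all tested genes; median 0.03). GSS, glutathione synthetase, measured 24.7, 25.0 and 26.3 TPM in KHSRPi#1 and 24.5, 23.2 and 25.2 TPM in KHSRPi#2, against 22.6, 21.7 and 22.3 TPM in NTC. All 6 knockdown values lie above all 3 NTC values. The log2 fold change of GSS was 0.15 (SE 0.05, limma adjusted p = 0.510). SLC7A11, the cystine transporter that feeds glutathione synthesis, also had all 6 knockdown libraries above NTC, at 5.03 ± 0.764 TPM in knockdown and 3.91 ± 0.352 TPM in NTC (0.29, SE 0.11, adjusted p = 0.550). GCLC, the catalytic subunit of the first step, had 26.1 ± 1.79 TPM in knockdown and 23.3 ± 1.88 TPM in NTC (0.16, adjusted p = 0.632). GSTP1 was the most abundant glutathione gene, at 987 ± 33.0 TPM in knockdown and 977 ± 34.7 TPM in NTC, and its small positive difference (0.02) turned to -0.01 under median-ratio rescaling.

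GSTZ1, a glutathione transferase of tyrosine breakdown, measured 11.2, 12.1 and 15.2 TPM in KHSRPi#1 and 11.9, 12.8 and 16.3 TPM in KHSRPi#2, against 9.27, 9.73 and 11.4 TPM in NTC. The library numbered 3 is the highest of each group, and NTC replicate 3 overlaps KHSRPi#1 replicate 1. Its log2 fold change was 0.35, with an SE of 0.12 and a limma adjusted p of 0.516 without the term. With the term the SE was 0.05 and GSTZ1 rose (adjusted p = 0.00892), as did 1.27% of tested genes. That call passed in 8 of 9 fits leaving out 1 library and not without NTC replicate 3 (0.105).

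Of 22 tested genes around NRF2, 11 were higher and 11 lower by sign, with a median of 0.00. FTH1, the heavy chain of the iron store ferritin, measured 1751, 1749 and 1619 TPM in KHSRPi#1 and 1698, 1691 and 1609 TPM in KHSRPi#2, against 1572, 1480.0 and 1442 TPM in NTC. All 6 knockdown values lie above all 3 NTC values. The log2 fold change was 0.17 with a limma adjusted p of 0.327 without the term (SE 0.04), and FTH1 rose with the term (SE 0.03, adjusted p = 0.00879). It passed with the term in 8 of 9 fits leaving out 1 library, and not without NTC replicate 3 (0.0688). ME1, malic enzyme, which makes NADPH, measured 22.1, 22.3 and 21.6 TPM in KHSRPi#1 and 22.2, 21.9 and 19.9 TPM in KHSRPi#2, against 16.9, 20.4 and 16.8 TPM in NTC. NTC replicate 2 lies above KHSRPi#2 replicate 3. ME1 rose with the term (0.26, SE 0.06, limma adjusted p = 0.0495), not without it (0.394), and passed in 1 of 9 fits leaving out 1 library. In the fit with the replicate number as a block its limma adjusted p was 0.0555.

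The RefSeq promoter window of ME1 holds the core TGACNNNGC 2 times, at chr6:83431172-83431196 (minus strand) and chr6:83431024-83431048 (plus strand), shown because ME1 was called with the term; 19.6% of tested genes with a window hold the core. The windows of GSTZ1 and GPX1, also called with the term, did not hold it.
ME1 core 1: tcctgccaTGACTCAGCgcttctcg
ME1 core 2: tgctggggTGACGGTGCtgactgca

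NQO1, a quinone reductase often used as an NRF2 readout, was at 19.3 ± 1.81 TPM in knockdown and 17.0 ± 1.16 TPM in NTC (log2 fold change 0.17, limma adjusted p = 0.574). NFE2L2 itself was at 52.5 ± 2.10 TPM in knockdown and 48.5 ± 2.41 TPM in NTC (0.11, limma adjusted p = 0.636). The ferritin light chain FTL was the most abundant gene of the list, at 4324 ± 159 TPM in knockdown and 4198 ± 179 TPM in NTC (0.04, adjusted p = 0.834). With the GC trend removed and the term included, GSS, CYBA and NQO1 also passed (limma adjusted p = 0.0208, 0.0129 and 0.0426), beside GSTZ1, FTH1 and ME1; that fit called 442 of 9807 genes, against 214 of the same genes uncorrected.

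**Figure D4:**
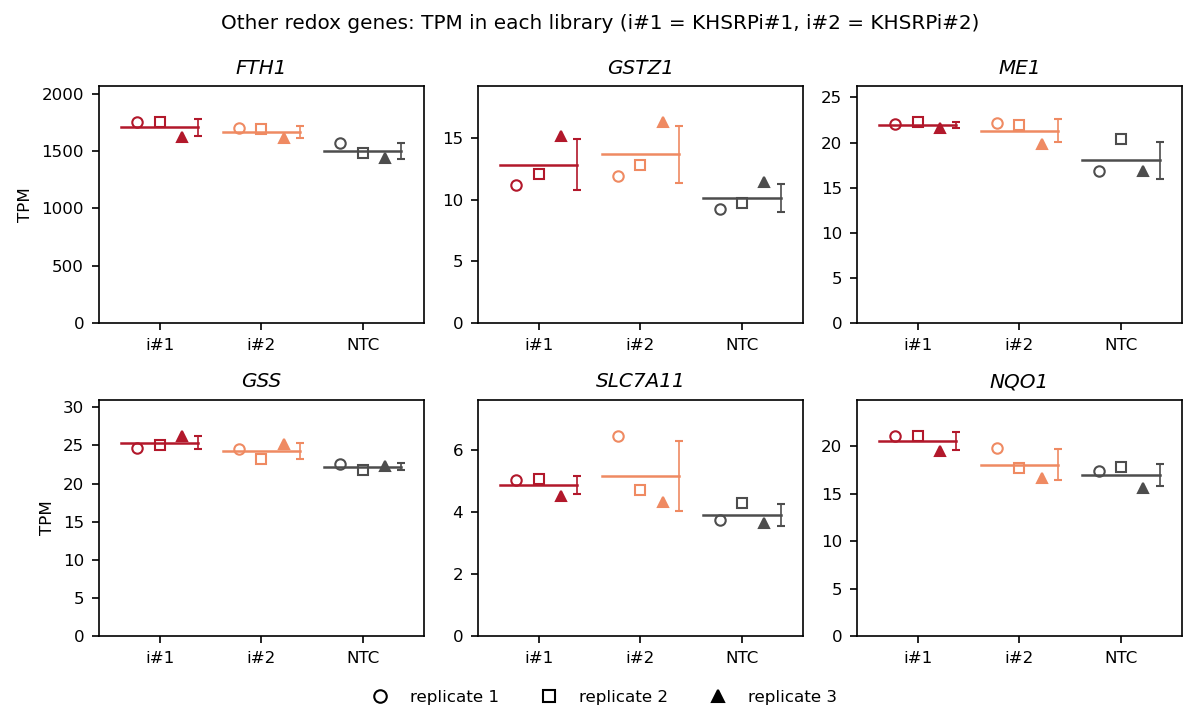
TPM of 6 genes of the other lists in each library, each with its own axis from 0. Groups run KHSRPi#1, KHSRPi#2, NTC from left to right; lines are group means, bars the SD (n = 3), filled triangles the libraries numbered 3. In FTH1, GSS and SLC7A11 all 6 knockdown points lie above all 3 NTC points, while GSTZ1, ME1 and NQO1 overlap.

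The remaining lists showed no called gene with or without the term over the 10939 tested genes; VDAC3 had a limma adjusted p of 0.0618 with the term, and 0.0499 when only the 9807 genes with a transcript were tested. Of 8 tested genes of superoxide production and removal, 6 were higher and 2 lower by sign (75.0% higher, against 58.3% of all tested genes). NCF4, a cytosolic subunit of the phagocyte NADPH oxidase, had 4.52 ± 0.719 TPM in knockdown and 5.44 ± 0.516 TPM in NTC. The membrane subunit CYBA had 1138 ± 62.6 TPM in knockdown and 1081 ± 88.7 TPM in NTC. CYBA passed only with the GC trend removed, together with the term or the replicate block (limma adjusted p = 0.0129 and 0.0238). The oxidase's GTPase RAC2 had 138 ± 11.7 TPM in knockdown and 151 ± 13.3 TPM in NTC. Of the 9 genes listed around selenoprotein synthesis, whatever their role in it, all were tested. By sign 6 were higher and 3 lower, with a median of 0.01. The selenoprotein genes GPX1, GPX4 and TXNRD1 had log2 fold changes of -0.20, -0.11 and 0.11. TRNAU1AP, a binder of the selenocysteine tRNA, had 18.3 ± 1.79 TPM in knockdown and 16.5 ± 1.30 TPM in NTC, and EEFSEC, the elongation factor that delivers this tRNA, 17.0 ± 0.542 TPM in knockdown and 17.5 ± 1.55 TPM in NTC. SEPSECS, which makes selenocysteine on the tRNA, had 7.60 ± 0.701 TPM in knockdown and 7.05 ± 0.403 TPM in NTC, and SEPHS1 113 ± 8.84 TPM in knockdown and 107 ± 5.81 TPM in NTC. EIF4A3, the most abundant of this list, had 399 ± 27.3 TPM in knockdown and 397 ± 23.6 TPM in NTC. Of 11 tested ferroptosis partners of GPX4, 8 were higher and 3 lower by sign (72.7% higher, against 58.3% of all tested genes; median 0.03). VDAC3, an outer mitochondrial membrane channel, had 349.5 ± 23.3 TPM in knockdown and 320.4 ± 22.1 TPM in NTC (0.12, limma adjusted p = 0.671). ALOX5AP, which presents arachidonate to 5-lipoxygenase, had 249 ± 11.6 TPM in knockdown and 266 ± 10.7 TPM in NTC (-0.10, adjusted p = 0.669), while NCOA4, the ferritin receptor, TFRC, the transferrin receptor, and SLC3A2, the partner chain of SLC7A11, had log2 fold changes of 0.05, 0.06 and 0.02.

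Likeness over the 9 libraries was described by Pearson's r of log2(TPM + 1) with 7523 genes of at least 10 TPM on average, naming the 2 highest for each gene. The values are highest matches out of many and share the libraries and the difference of those numbered 3, so no p is given. TXNRD1 was most like GCLC (r = 0.99), the glutathione synthesis gene above, and SPPL2A (0.98). SOD2 was most like PSME4 and SLC23A2 (0.98 each), and SLC23A2 encodes a vitamin C transporter. PRDX1 was most like TXNL4B and TM2D2 (0.99 each), TXN most like STX18 (0.97) and SURF2 (0.96), and PRDX5 most like SDHAF4 (0.98) and CHMP2A (0.96). GPX1 was most like C1ORF35 (0.99) and LRFN4 (0.97), and GPX4 most like LRFN4 (0.96) and RPL13A (0.95). For PRDX3 the closest were MBTD1 (0.97) and ACSL3 (0.96), for PRDX2 UQCRC1 and RPL13 (0.90 each), and for SOD1 FAM162A (0.92) and TAF12 (0.91).

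Some values may depend on how reads were assigned. GENCODE 29 names 22 pseudogenes after 7 of the 10 genes, 7 of them after TXN, 4 each after PRDX2 and PRDX3, 3 after SOD1, 2 after GPX1 and 1 each after PRDX1 and SOD2. None of the 22 has a row of its own in the deposited table, and whether their reads were shared with the genes is not known. The same annotation gives GPX1 itself, at chr3:49357171-49358600 on the minus strand, the type of a polymorphic pseudogene, and lists SOD2 under 2 gene IDs, while the table has 1 row for each symbol.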

How the data were processed

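RNA was sequenced in 9 CAL-1 libraries. The values, as deposited by the authors, are TPM for each gene symbol. Reads were placed on hg38, per the submitters' processing notes. The version of the aligner, the counter, annotation and strand setting were not given in the sources used here. Each deposited TPM column sums to 1000000, so read depth is unknown and no count model was used. Groups came from sample titles, and no 2 libraries were identical.

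Genes averaging 1 TPM or more (10939) were tested on log2(TPM + 1), which understates changes of low genes. The tool was limma 3.58.1 (R 4.3.3), two-sided, with trended eBayes and all groups in 1 fit. Contrasts were the mean of both knockdown groups minus NTC, each group minus NTC, and KHSRPi#2 minus KHSRPi#1. P-values were adjusted by Benjamini-Hochberg over all tested genes, with a threshold of 0.05. A term for the libraries numbered 3 was an alternative.

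The 10 genes, the lists and the alternatives were chosen with earlier results of these data known. Named genes were the 10, KHSRP, up to 4 genes per list with the smallest p and its most abundant gene, the 2 genes most like each of the 10, and list genes called with the term. A gene that this rule names is not reported here.

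Data were simulated over 10939 genes for knockdown minus NTC. Without the term, 39.4% of genes changed 1.25-fold and 89.4% of those changed 1.5-fold were called, with 3 false calls. With the term the shares were 64.0% and 96.3%, with 10 false calls. The simulated errors were independent between genes and held no GC trend, unlike the libraries here, so these rates may not hold for the data. Transcripts (1 protein-coding transcript per gene), positions and pseudogenes are from GENCODE 29, and promoter windows from RefSeq. Python 3.11.15, numpy 2.4.6, pandas 2.3.3 and matplotlib 3.10.9 were used.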

Additional observations from a re-analysis of the deposited data

How the results depend on the processing

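Alternatives were pseudocounts of 0.1 and 5, no filter, a mean of at least 5 TPM, quantile normalization, median-ratio rescaling, the replicate block, the term for the libraries numbered 3, robust eBayes, replicates 1 and 2 alone, and leaving out each library with and without the term. Correction for GC content was added after seeing the data, and was not run with libraries left out. Of the 10 genes, 0 were called between knockdown and NTC, but 1 (GPX1) with the term, with GC correction and the term, and with GC correction and the replicate block, and 0 to 1 with libraries left out. Over all genes 9 were called, against 14 in replicates 1 and 2 alone, 192 with the term, 442 with GC correction and the term, 395 with GC correction and the replicate block, and 3 to 202 with libraries left out. The cause was not tested.

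The replicate block called 152 genes and 0 of the 10. In their deviations from group means, same-numbered libraries correlated at 0.0398 to 0.324 for number 1 and 0.208 to 0.228 for number 2. For number 3 the values were 0.622 to 0.628. Of 9 libraries, 4 correlated best with their own number, among them all those numbered 3. The numbers were therefore not taken to pair all libraries, and a term for those numbered 3 was an alternative. The count of 6 between libraries numbered 3 and the rest ranged from 3 to 6 with libraries left out. In that comparison GPX4 did not pass under median-ratio rescaling (limma adjusted p = 0.108). Under quantile normalization TXNRD1 did not pass (0.0573), while PRDX3 did (0.0290).

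Signs near 0 reversed. Median-ratio rescaling gave -0.010 for PRDX3, -0.021 for PRDX5, -0.019 for PRDX6, -0.0059 for GSTP1 and -0.014 for EIF4A3, and quantile normalization -0.0047 for PRDX5 and -0.0011 for PRDX6. GC correction, alone, with the term or with the block, gave -0.035 for PRDX3, -0.027 for PRDX6, 0.0077 for EEFSEC and -0.0043 for EIF4A3, and replicates 1 and 2 alone 0.014 for EEFSEC. With libraries left out, log2 fold changes ranged from -0.023 to 0.12 for PRDX1, -0.067 to 0.0019 for PRDX2, -0.024 to 0.034 for PRDX3, -0.094 to 0.11 for PRDX5, -0.092 to 0.014 for TXN, -0.0063 to 0.086 for TXNIP, -0.011 to 0.013 for PRDX6, -0.011 to 0.044 for GSTP1, -0.096 to 0.025 for EEFSEC, -0.040 to 0.044 for EIF4A3 and -0.013 to 0.066 for SLC3A2. Apart from GPX1, none of the 10 genes was called between knockdown and NTC under any of these alternatives. With no read counts, the precision of low genes rests on the replicates alone.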
